A study of Mus musculus with 6 samples.

Results

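Connexin and pannexin genes were compared between epidermal keratinocyte lines of C57BL/6 mice. The set was 8 of the 24982 genes listed for each library, chosen by gene symbol: the connexin genes Gja1, Gjb2, Gjb5, Gjb6 and Gjc1, and the pannexin genes Panx1, Panx2 and Panx3. Poly(A) RNA was sequenced from 3 KSFM-Ca2+ libraries and 3 DKSFM libraries. KSFM-Ca2+ cells came from neonatal skin and were propagated long term on collagen IV in a keratinocyte serum-free medium with low calcium, and the line had abnormal chromosome numbers. DKSFM cells were the small fraction of KSFM-Ca2+ cells that survived a move to defined keratinocyte serum-free medium, which contained more calcium. No treatment was recorded for either line. Medium, calcium and the survival of few cells changed together and cannot be told apart here, and what separated the replicates of a line was not stated, so the p-values measure the spread between these libraries, which may be technical.

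Connexins are membrane proteins that assemble into hemichannels, and hemichannels of adjacent cells dock to form gap junctions that pass ions, second messengers and small metabolites. Keratinocytes of the epidermis express several connexins whose makeup changes with the layer and with wounding, and mutations in human connexin genes cause skin disease and deafness. Pannexins share the membrane topology of connexins but act mainly as single-membrane channels that release ATP from the cell. Calcium outside the cell governs keratinocyte contacts, since cadherin adhesion needs it and gap junctions form where cells adhere.

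The value listed for a gene was its mean read coverage per base, written to 1 decimal and not scaled to library size. Because coverage is per base, levels of different genes can be set side by side. Coverage summed over genes was 1601676, 1238411 and 1057750 in KSFM-Ca2+ replicates 1 to 3 and 1174348, 1239438 and 1170675 in DKSFM replicates 1 to 3, with 13748 to 14140 genes above 0 per library. Listed values were scaled to a common library size, which gives the normalized coverage reported as mean ± SD (n = 3), and fold changes are on the log2(normalized coverage + 0.1) scale, DKSFM over KSFM-Ca2+.

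Both lines carried the transcripts of basal keratinocytes. The 8 keratinocyte markers summed to a normalized coverage of 18925 to 19383 in KSFM-Ca2+ and 40841 to 45189 in DKSFM, and most of the sum came from the basal keratin genes Krt14 and Krt5, which were 2.47- and 2.37-fold higher in DKSFM. Of the other basal markers, Trp63 and Itga6 were 1.09- and 1.1-fold and Col17a1 1.29-fold higher in DKSFM, and Itgb4 was lower there (321 ± 6.30 against 192 ± 8.56, SD, n = 3). The spinous layer keratin Krt10 had a low coverage of 3.50 ± 0.154 in KSFM-Ca2+ and 5.0 ± 0.951 in DKSFM, and Krt1 was listed at 0 in KSFM-Ca2+ and at 0.2 to 0.8 in DKSFM. Markers of other skin cells were sparse. Of 6 fibroblast markers, 5 (Col1a1, Col1a2, Col3a1, Lum and Dcn) were listed at 0 in all 6 libraries, and the sums, made up of Pdgfra, were 0.893 to 1.30 in KSFM-Ca2+ and 2.10 to 2.33 in DKSFM. The 5 melanocyte markers summed to at most 0.893, led by Pmel, with Dct and Tyr at 0. Among 5 endothelial markers Cdh5, Tie1 and Emcn were at 0, and the sums, mostly Pecam1, were 2.67 to 3.07 in KSFM-Ca2+ and 7.10 to 8.18 in DKSFM. The 6 immune markers summed to 10.8 to 12.5 and 13.7 to 20.7, nearly all of it from the lysosomal gene Cd68, while Ptprc, Cd3e, Cd207, Itgam and Csf1r were at 0.1 or less. Pdgfra, Pecam1 and Cd68 thus moved with the line, and their part in the connexin results was not tested. In bulk RNA, fewer cells with a transcript and less of it per cell cannot be told apart.

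Of the 8 genes, 5 passed the filter on low coverage (Gja1, Gjb2, Gjb5, Gjc1 and Panx1), and Gjb6, Panx2 and Panx3 were not tested. Gja1 was at least 2-fold higher in DKSFM and Gjc1 at least 2-fold lower, with limma adjusted p below the threshold of 0.01. The fitted fold of Gjb2 was also at least 2-fold higher in DKSFM, but no p is given for it. The lines differed widely in general. Of 12409 genes tested, 2945 (23.7%) passed the same threshold, 13.1% higher and 10.6% lower in DKSFM, and the median gene had a log2 fold change of -0.01. The adjusted p alone fell below 0.01 for 72.6% of them, as it did for the 4 genes of the set that passed the filter through both lines. The libraries of the lines did not overlap for 83.3% of genes, nor for the 5 tested genes of the set. Gjb2 had to differ to be tested, since it passed the filter only through DKSFM, and its place in these counts carries no weight.

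**Figure D1:**
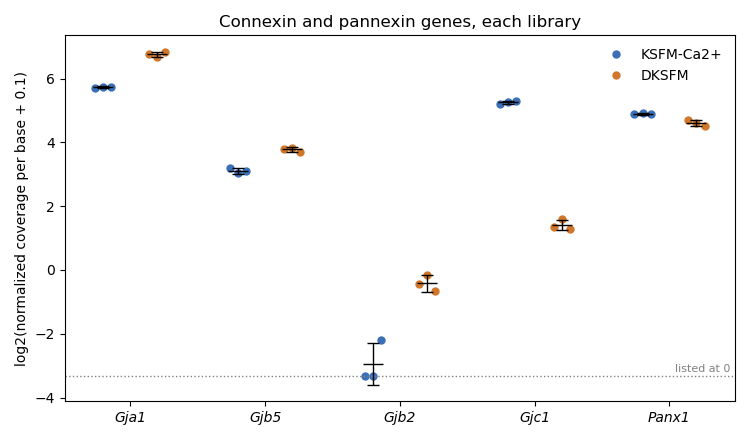
Normalized coverage per base of the 5 tested genes of the set, on the log2(coverage + 0.1) axis. Points are libraries (blue KSFM-Ca2+, orange DKSFM), bars are mean ± SD of the plotted log2 values (n = 3), and the dotted line is a listed value of 0. Gjc1 lies second to Gja1 among these genes in KSFM-Ca2+ and above only Gjb2 in DKSFM, and no gene overlaps between the lines.

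Gja1 encodes Cx43, the most widely expressed connexin and a major gap junction protein of basal and spinous keratinocytes. The gene lies on chromosome 10 from 56377330 to 56402513 on the plus strand (GRCm38; gene positions here are those of GENCODE). Its listed coverage was 67.5, 54.0 and 44.8 in KSFM-Ca2+ replicates 1 to 3 and 102.0, 102.3 and 107.3 in DKSFM replicates 1 to 3. After scaling, the KSFM-Ca2+ libraries lay within 51.5 to 53.6 and the DKSFM libraries within 102 to 114, so the falling listed values among the KSFM-Ca2+ replicates followed their library totals. The means were 52.6 ± 1.08 and 108 ± 5.84 (SD, n = 3), a log2 fold change of 1.03 (SE 0.04, 95% confidence interval 0.93 to 1.14, limma adjusted p = 1.72e-07). Every DKSFM library was above every KSFM-Ca2+ library. The difference sat at the 2-fold limit. Without DKSFM replicate 3 the log2 fold change was 0.99 (limma adjusted p = 2.42e-06, against 1.76e-08 to 1.61e-05 over 16 alternatives), just under it.

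The 250 bases before the transcription start of Gja1 are shown because the gene was higher in DKSFM and its window holds a motif that few windows have. RefSeq promoter sequences (GRCm38.p6) were matched for 5 of the 8 genes, Gja1, Gjb2, Gjb5, Gjb6 and Panx1. Windows and distances are counted from the RefSeq start, which for Gja1 and Gjb5 is not the GENCODE start, so that the window of Gja1 ends short of the gene position given for it and that of Gjb5 overlaps the gene's end with the higher coordinate. The windows were searched on both strands for the AP-1 motif TGANTCA, the GC box GGGCGG and the TATA motif TATAAA, which did not overlap one another in any of the 5. Of 32851 promoter windows of this length, 6.75% hold the AP-1 motif, 32.7% the GC box and 12.4% the TATA motif. In the window of Gja1, chr10:56377050-56377299 on the plus strand, the capitals mark the AP-1 match, 19 to 13 bases before the RefSeq start.
Gja1: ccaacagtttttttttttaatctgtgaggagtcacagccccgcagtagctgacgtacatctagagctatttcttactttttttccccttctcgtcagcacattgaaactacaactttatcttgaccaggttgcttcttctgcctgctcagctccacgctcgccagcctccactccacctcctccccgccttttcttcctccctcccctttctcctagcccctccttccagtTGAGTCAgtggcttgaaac
A match is a run of letters and not a measured binding site. No AP-1 match was present in the windows of Gjb2, Gjb5, Gjb6 or Panx1. The window of Gjb5 holds 1 TATA match on the opposite strand, 243 to 238 bases before the start, and that of Panx1 holds none of the motifs.

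Gjc1 encodes Cx45, a connexin best known from the conduction system of the heart and from vascular smooth muscle, which forms channels of low conductance. It lies on chromosome 11 from 102799579 to 102819700 on the minus strand. KSFM-Ca2+ replicates 1 to 3 had listed coverages of 48.1, 39.0 and 33.0, against 2.3, 2.9 and 2.2 in DKSFM replicates 1 to 3. All 3 KSFM-Ca2+ libraries were high and all 3 DKSFM libraries low, with a wide gap between the groups. Normalized coverage was 38.1 ± 1.25 in KSFM-Ca2+ and 2.55 ± 0.299 in DKSFM (SD, n = 3), a 14.5-fold difference (log2 fold change -3.85, SE 0.09, 95% confidence interval -4.06 to -3.65, limma adjusted p = 6.71e-09). Among all tested genes its level moved from percentile 60.0 in KSFM-Ca2+ to percentile 14.5 in DKSFM, while Gja1 moved from percentile 67.5 to percentile 82.2. Gjc1 remained detectable in each DKSFM library.

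Gja1 and Gjc1 thus differed between the lines in opposite directions. The ratio of Gja1 to Gjc1 coverage, which does not depend on scaling between libraries, was 1.40, 1.38 and 1.36 in KSFM-Ca2+ replicates 1 to 3 and 44.3, 35.3 and 48.8 in DKSFM replicates 1 to 3. Coverage of the genes was thus of similar size in KSFM-Ca2+, whereas in DKSFM the mean ratio was 42.8 ± 6.88 (SD, n = 3).

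Over the 6 libraries, the 3 tested genes whose centred log2 values lay nearest to those of Gjc1, of 12404 genes compared, were Fam129a, Stc2 and Tnfaip2. Fam129a is known as a gene of the stress response, Stc2 encodes the secreted glycoprotein stanniocalcin 2, and Tnfaip2 is induced by tumor necrosis factor. Their root mean square differences from Gjc1 were 0.0697, 0.0717 and 0.0981 log2 units. Their levels differed from that of Gjc1 and from each other. Normalized coverage of Fam129a was 63.7 ± 3.59 in KSFM-Ca2+ and 4.21 ± 0.417 in DKSFM, that of Stc2 10.9 ± 0.896 and 0.690 ± 0.0940, and that of Tnfaip2 89.7 ± 3.08 and 6.37 ± 1.35 (SD, n = 3). The likeness rests on 6 libraries that fall into the 2 lines, so it mostly reflects a similar size of the difference between them.

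**Figure D2:**
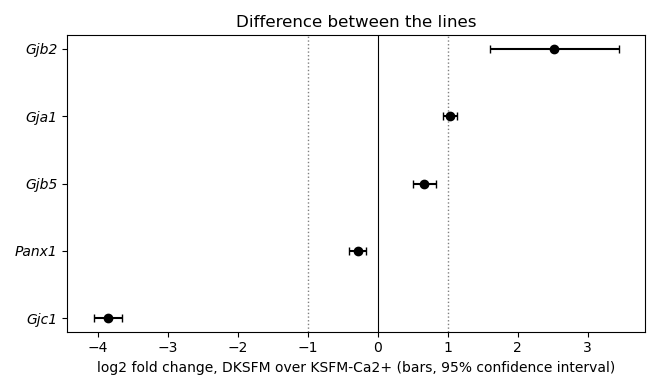
Log2 fold change of each tested gene of the set, DKSFM over KSFM-Ca2+, with its 95% confidence interval from limma (points and bars; dotted lines, 2-fold in either direction). The interval of Gja1 spans the 2-fold line, Gjc1 stands alone below -3, and Gjb2, which was tested only through its DKSFM values, has the widest interval of the 5.

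Gjb2 and Gjb6 encode Cx26 and Cx30, which can form mixed channels and increase in hyperproliferative and wounded epidermis. They are neighbours on chromosome 14, Gjb2 from 57098600 to 57104702 and Gjb6 from 57123303 to 57133611, both on the minus strand. Gjb2 was listed at 0, 0 and 0.1 in KSFM-Ca2+ replicates 1 to 3 and at 0.6, 0.8 and 0.5 in DKSFM replicates 1 to 3. It was thus at or next to the smallest listed value in KSFM-Ca2+ and low but present in each DKSFM library, with no overlap. A step of 0.1 corresponded to about 2.83 reads over its transcript. Normalized coverage was 0.0394 ± 0.0682 in KSFM-Ca2+ and 0.655 ± 0.135 in DKSFM (SD, n = 3), with a fitted log2 fold change of 2.53 (SE 0.40). Since the gene was tested only because its DKSFM values passed the filter, this is a description and no p is given. The size of the fold depends on the pseudocount, being 0.67 with a pseudocount of 1, and it was 1.74 with KSFM-Ca2+ replicate 3 as the only KSFM-Ca2+ library, and the call was lost in both settings. Gjb6 was listed at 0 in all 6 libraries.

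The windows before the starts of these neighbours are shown side by side, since Gjb2 was detected and Gjb6 was not. That of Gjb2, chr14:57104703-57104952 on the minus strand, holds 18 CpG dinucleotides and 2 GC box matches (capitals), at 211 to 206 and 126 to 121 bases before the start. The window of Gjb6, chr14:57133612-57133861 on the minus strand, holds 5 CpG dinucleotides and none of the motifs searched. Of all promoter windows, 78.3% hold fewer CpG dinucleotides than that of Gjb2 and 44.4% fewer than that of Gjb6.
Gjb2: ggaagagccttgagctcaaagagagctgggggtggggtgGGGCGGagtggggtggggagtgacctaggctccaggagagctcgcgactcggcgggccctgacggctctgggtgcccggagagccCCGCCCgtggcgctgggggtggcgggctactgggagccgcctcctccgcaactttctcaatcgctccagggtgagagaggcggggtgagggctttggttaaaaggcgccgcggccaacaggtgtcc
Gjb6: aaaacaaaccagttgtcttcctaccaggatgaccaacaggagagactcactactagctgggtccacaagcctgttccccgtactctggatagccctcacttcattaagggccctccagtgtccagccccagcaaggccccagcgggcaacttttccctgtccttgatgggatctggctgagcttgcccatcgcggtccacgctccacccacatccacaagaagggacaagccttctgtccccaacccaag
These letters describe the windows and say nothing of the factors that act there. For comparison, the windows of Gja1, Gjb5 and Panx1 hold 6, 3 and 17 CpG dinucleotides.

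Gjb5 encodes Cx31.1, a connexin of the suprabasal epidermis that is thought to form few functional channels by itself. It lies on chromosome 4 from 127354809 to 127358181 on the minus strand. Listed coverage was 11.9, 8.1 and 7.2 in KSFM-Ca2+ replicates 1 to 3 and 13, 14.2 and 12.2 in DKSFM replicates 1 to 3. DKSFM libraries were all above the KSFM-Ca2+ libraries, by less than 2-fold. Normalized coverage was 8.54 ± 0.520 and 13.6 ± 0.629 (SD, n = 3), a 1.59-fold difference (log2 fold change 0.67, SE 0.07, 95% confidence interval 0.51 to 0.83, limma adjusted p = 3.44e-05). Gja1 and Gjb5 thus differed in the same direction, and the ratio of Gja1 to Gjb5 coverage was 6.19 ± 0.498 in KSFM-Ca2+ and 7.95 ± 0.800 in DKSFM (SD, n = 3).

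A further 11 connexin genes were at or near 0. Gja3, Gja5, Gja10, Gjc3, Gjd2, Gjd4 and Gje1 were listed at 0 in all 6 libraries, and Gja4, Gja6, Gjb1 and Gjd3 reached at most 0.3 and were not tested.

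Panx1, the most widely expressed pannexin, forms the main ATP release channel of many cells and is opened by caspase cleavage and by other stimuli. It lies on chromosome 9 from 15002128 to 15045478 on the minus strand. Listed coverage was 38.3, 30.5 and 24.8 in KSFM-Ca2+ replicates 1 to 3 and 24.3, 24.2 and 21.6 in DKSFM replicates 1 to 3. The listed values nearly met, and after scaling the KSFM-Ca2+ libraries (29.2 to 30.3) were all above the DKSFM libraries (22.9 to 25.7). Normalized coverage was 29.6 ± 0.586 and 24.3 ± 1.41 (SD, n = 3), a 1.22-fold difference (log2 fold change -0.29, SE 0.05, 95% confidence interval -0.41 to -0.17, limma adjusted p = 0.00106). With KSFM-Ca2+ replicate 3 as the only library of its line the adjusted p of limma was 0.0241, the highest of 16 alternatives, whose lowest was 6.84e-04.

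Panx2, a pannexin of the nervous system, was listed at 0.1 in KSFM-Ca2+ replicate 1 and at 0 in the other 5 libraries. An antisense gene overlaps it on chromosome 15. Panx3, a pannexin of cartilage, bone and differentiating keratinocytes, was listed at 0 in all 6 libraries. In order of normalized coverage, the tested genes of the set were Gja1, Gjc1, Panx1, Gjb5 and Gjb2 in KSFM-Ca2+ and Gja1, Panx1, Gjb5, Gjc1 and Gjb2 in DKSFM, and no neighbours in either order overlapped across the 3 libraries. Among the pannexins, Panx1 accounted for nearly all pannexin coverage, whose sum was 29.6 ± 0.562 in KSFM-Ca2+ and 24.3 ± 1.41 in DKSFM (SD, n = 3).

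Genes near each gene of the set were summarised as a description of its surroundings. Within 10 Mb on either side, the median log2 fold change was 0.13 for 56 tested genes around Gja1, -0.06 for 152 around Gjb2, 0.11 for 221 around Gjb5, -0.15 for 251 around Gjc1 and -0.24 for 105 around Panx1. The neighbours spread widely, with quartiles of -0.19 and 0.48 around Gja1, -0.56 and 0.30 around Gjb2, -0.22 and 0.54 around Gjb5, -0.54 and 0.56 around Gjc1 and -0.54 and 0.28 around Panx1. The value of Panx1, -0.29, lay within the quartiles of its neighbours, and those of Gja1, Gjb5 and Gjc1 lay outside theirs. That of Gjb2 also lay outside, but Gjb2 had to differ to be tested, so its place carries no weight. By definition, about as many neighbours lie outside their quartiles as within them. Around the untested genes the medians were -0.05 for 153 genes (Gjb6), -0.16 for 173 (Panx2) and -0.34 for 86 (Panx3). Chromosome copy number was not measured in the libraries, and its part in these values was not tested.

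Genes whose products bind, anchor, modify or turn over connexins were examined next. Of 27 such genes, 25 were tested, 7 were higher and 15 lower in DKSFM with a limma adjusted p below 0.01, against 72.6% of all genes in either direction. At least 2-fold higher were 2 of the 25, Dbn1 and Cav1, and 0 were at least 2-fold lower, against 23.7% of all genes in either direction. With quantile normalization 1 tested gene was at least 2-fold lower, and 1 instead of 2 passed when every library had to pass the filter, which leaves out Dbn1. Cdh2, the gene of N-cadherin, was not tested and had a low coverage of 0.633 ± 0.271 in KSFM-Ca2+ and 0.241 ± 0.0505 in DKSFM (SD, n = 3). The median log2 fold change was -0.19, against -0.01 over all genes tested. Dbn1 encodes drebrin, an actin-binding protein that holds Cx43 at the membrane. Its listed coverage was 0.2, 0 and 0.1 in KSFM-Ca2+ replicates 1 to 3 and 20.4, 19.0 and 20.8 in DKSFM replicates 1 to 3, so it was next to the smallest listed value in KSFM-Ca2+ and far above it in each DKSFM library. Dbn1 passed the filter only through DKSFM and so had to differ to be tested. Its place in the counts of this list carries no weight, and no test is given. Cav1, the gene of the membrane scaffold caveolin 1, had a normalized coverage of 478 ± 12.1 and 1254 ± 39.9 (SD, n = 3; log2 fold change 1.39, limma adjusted p = 8.16e-09).

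Tjp1, which encodes the ZO-1 scaffold that binds the Cx43 tail, had a normalized coverage of 110 ± 1.93 and 79.4 ± 2.54 (SD, n = 3; log2 fold change -0.47, limma adjusted p = 3.79e-06). For Cdh1, the gene of E-cadherin, the values were 160 ± 2.46 and 145 ± 3.32 (log2 fold change -0.13, limma adjusted p = 0.00299). The DKSFM libraries were below the KSFM-Ca2+ libraries for both genes, while Gja1 was above.

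Receptors and enzymes that act on extracellular ATP and its breakdown products, the pathway downstream of Panx1 release, were counted as a further list. The list and its counts also include P2ry10, whose ligand is not a nucleotide. Of 24 genes 12 were tested, 3 were higher and 5 lower in DKSFM with a limma adjusted p below 0.01 (72.6% of all genes in either direction), and 2 were higher and 3 lower by at least 2-fold (23.7% of all genes), with a median log2 fold change of -0.00. Of the 5 past 2-fold, P2rx7, P2ry10, Entpd2 and Entpd3 passed the filter through 1 line only and so had to differ. Their place in these counts carries no weight, and no test is given for them. P2rx7, an ATP-gated channel linked to Panx1 opening, was listed at 4.3, 4.5 and 2.7 in KSFM-Ca2+ replicates 1 to 3 and at 0.1, 0.2 and 0 in DKSFM replicates 1 to 3. It was thus low in the KSFM-Ca2+ libraries and close to 0 in DKSFM. P2rx4, the most abundant ATP-gated channel of the list, had a normalized coverage of 89.0 ± 2.32 and 64.5 ± 2.90 (SD, n = 3; log2 fold change -0.46, limma adjusted p = 1.34e-05). P2ry2, a G protein-coupled receptor for ATP and UTP, had 26.4 ± 1.6 and 27.4 ± 1.14, with overlapping libraries (log2 fold change 0.06, limma adjusted p = 0.394).

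Several genes of the list encode enzymes that degrade nucleotides outside the cell. Nt5e, which makes adenosine from AMP, had a normalized coverage of 90.6 ± 1.80 in KSFM-Ca2+ and 63.5 ± 1.35 in DKSFM (SD, n = 3; log2 fold change -0.51, limma adjusted p = 1.76e-06). Enpp1, which cleaves ATP to AMP and pyrophosphate, had 17.0 ± 1.32 and 4.64 ± 0.0682 (log2 fold change -1.85, limma adjusted p = 1.24e-07). Entpd2 and Entpd3, ectonucleotidases, had low coverage, Entpd2 with 1.08 ± 0.0951 in KSFM-Ca2+ and 0.274 ± 0.108 in DKSFM and Entpd3 with 0.170 ± 0.0836 and 1.21 ± 0.274 (SD, n = 3). P2ry10, which despite its name is a receptor for lysophosphatidylserine, was listed at 0 in each KSFM-Ca2+ library and at 2.5, 3.4 and 2.6 in DKSFM replicates 1 to 3. The count past the 2-fold threshold, 5 in these data, was 1 when every library had to pass the filter, which leaves out genes near 0 in either line, and 3 with a pseudocount of 1 or with KSFM-Ca2+ replicate 3 as the only library of its line.

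Of 10 genes for other large-pore channels, the CALHM channels and the LRRC8 subunits of volume-regulated anion channels, 7 were tested. With a limma adjusted p below 0.01, 2 were higher and 4 lower in DKSFM (72.6% of all genes in either direction), and 1 was higher and 2 lower by at least 2-fold (23.7% of all genes), with a median log2 fold change of -0.40. Lrrc8b had a normalized coverage of 6.85 ± 0.430 and 2.67 ± 0.342 (SD, n = 3; log2 fold change -1.33, limma adjusted p = 1.06e-05) and Lrrc8c 43.2 ± 2.64 and 17.4 ± 0.672 (log2 fold change -1.31, limma adjusted p = 1.77e-07). The obligatory subunit gene Lrrc8a had 21.0 ± 0.841 and 19.2 ± 0.354 and did not pass the threshold (log2 fold change -0.13, limma adjusted p = 0.0423). Calhm5 was listed at 0 in all 3 KSFM-Ca2+ libraries and at 1.3, 2.1 and 1.1 in DKSFM replicates 1 to 3, and it passed the filter through DKSFM only. It is the 1 gene of this list counted as at least 2-fold higher, had to differ to be tested and carries no weight there, and with the filter on every library 0 were higher and 2 lower.

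**Figure D3:**
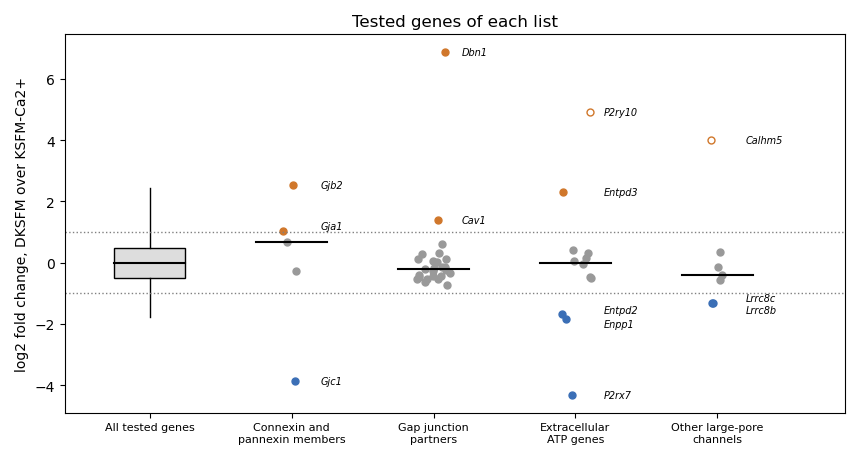
Log2 fold change of the tested genes of each list, DKSFM over KSFM-Ca2+ (points, genes; orange and blue, past the threshold and higher or lower in DKSFM; open points, listed at 0 in every KSFM-Ca2+ library, so that the plotted value depends on the pseudocount; short lines, medians; dotted lines, 2-fold). The box shows the quartiles and the whiskers the percentiles 5 and 95 (-1.76 and 2.44) of all 12409 genes tested. Gjc1, Enpp1 and P2rx7 lie beyond the lower whisker, P2rx7 having passed the filter through KSFM-Ca2+ only. Gjb2, Dbn1, P2ry10 and Calhm5, which passed the filter through DKSFM only, lie beyond the upper whisker.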

How the data were processed

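The authors made directional poly(A) libraries, sequenced single reads of 85 bases and aligned them with STAR to the mm10 RefSeq annotation under a first-strand setting. The deposited values are read coverage per base for each gene, not scaled between libraries. All 3 DKSFM libraries and, of KSFM-Ca2+, only replicate 3 carry a mark that they were combined, which is not explained. The mark thus goes largely with the line. Coverage is not a count, so no count model was fitted.

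Library totals were adjusted with trimmed means of M values, unweighted (trims of 30% and 5%). The filter required 0.5 or more of normalized coverage in 3 or more libraries, and genes that passed were tested with limma 3.58.1 in R 4.3.3 (lmFit and eBayes with trend, two-sided) on log2(normalized coverage + 0.1), with Benjamini-Hochberg adjustment over 12409 genes. The threshold was an adjusted p below 0.01 and at least 2-fold. The code was tested on simulated data. Gene positions came from GENCODE annotation of GRCm38, with 24490 genes found under their symbol and 58 under a synonym, and promoter sequences from RefSeq. Figures were drawn with matplotlib 3.10.9 in Python 3.11.15.

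Every member was named, with further connexins by range. From each list set genes (Tjp1, Cdh1, P2rx4, P2rx7, P2ry2, Nt5e and Lrrc8a) were named, with the 3 genes in each direction that had the largest change past the threshold, and the 3 tested genes nearest in pattern to the member with the largest change. Krt1, Pdgfra, Pecam1, Cd68 and other markers are named from marker lists. Members and lists were chosen with earlier results of these data known. Alternatives covered scaling, filter, pseudocount, thresholds, the variance trend, a replicate block, the combined libraries alone and leaving out each library. Calhm3 was not analysed here, and some genes of the lists are not reported here.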

Additional observations from a re-analysis of the deposited data

How the results depend on the processing

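Of 78 alternative log2 fold changes of the set, 75 kept their direction and their side of the threshold, 3 lost the call and 0 reversed. The 78 include 14 of Gjb2, which was tested only through its DKSFM values. Its kept direction, and its place in the counts of the set below, carry no weight. Of 84 alternative counts past the threshold, 78 stayed within 1.5 times the main count, which still allows changes, such as 2 instead of 3 genes of the set, 7 instead of 5 extracellular ATP genes with no filter, or 1989 instead of 2945 of all genes with the filter on every library. Gjc1, Gjb5 and Panx1 kept their side of the 2-fold threshold in every alternative run, as did Gja1 except without DKSFM replicate 3. With each library left out in turn, the log2 fold change ranged from 0.99 to 1.07 for Gja1, 2.29 to 2.94 for Gjb2, 0.63 to 0.72 for Gjb5, -3.94 to -3.79 for Gjc1 and -0.33 to -0.25 for Panx1, and 2 to 3 genes of the set and 2924 to 3005 of all genes passed the threshold. With a pseudocount of 1 the log2 fold change of Gjb2 was 0.67 and 3 extracellular ATP genes passed. With the filter applied to every library, 1 gap junction partner and 1 extracellular ATP gene passed, since that filter leaves out genes near 0 in a line. With only the libraries marked as combined, which leaves 1 KSFM-Ca2+ library that limma assumes to vary like the DKSFM libraries, Gjb2 had a log2 fold change of 1.74 and 3 extracellular ATP genes passed. With no fold limit, 9004 genes and 5 of the set passed. Gjb2 gave no value under quantile normalization or the filter on every library, since it was then not tested. Other scalings put the median log2 fold change of all genes between -0.05 and 0.01.

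No pairing of the libraries by replicate number was seen, though a check on 3 libraries per line cannot exclude one. Deviations of equally numbered libraries from their line means correlated at -0.04, 0.05 and -0.00 across 9895 genes, and not every library correlated best with its own number. With the replicate number as a block, 2952 genes passed instead of 2945, with 3 of the set, and no call of the set changed. Coverage to 1 decimal limits Gjb6, Panx2 and Panx3, and Gjb2 in KSFM-Ca2+, where low expression and none cannot be separated.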
